A study of Mus musculus with 3 samples.

Results

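Cnr1 nuclei are inhibitory hippocampal nuclei with high counts of Cnr1, the gene of the cannabinoid receptor CB1 (mm10 chromosome 4, bases 33924593 to 33948831, plus strand), and low counts of the genes that mark other interneuron classes. They were chosen from single-nucleus counts of unique molecular identifiers (UMIs, the tags by which single RNA molecules are counted). A nucleus with 500 or more genes was taken as inhibitory when it held 3 or more UMIs of Gad1 and Gad2 together, and more of these than of Slc17a7. An inhibitory nucleus was taken as a Cnr1 nucleus when it held under 2 UMIs of each of Pvalb, Sst, Vip and Lamp5, 3 or more UMIs of Cnr1, and 5 or more Cnr1 UMIs per 10000 UMIs. This gave 127 nuclei, which were 65, 31 and 31 nuclei in mice 1, 2 and 3, out of 3080 inhibitory nuclei and 26480 nuclei with 500 or more genes. The counts of these 8 genes chose the nuclei, so their levels are a description and were not tested.

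CB1 is a receptor of axon terminals. When a postsynaptic neuron releases endocannabinoids, the lipid messengers made on its side of the synapse, they bind presynaptic CB1 and lower the release of transmitter. In the hippocampus CB1 is best known from basket cells that also hold the peptide cholecystokinin, a class of interneuron that arises in the caudal ganglionic eminence (CGE) of the embryo, whereas parvalbumin and somatostatin interneurons arise in the medial ganglionic eminence (MGE).

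The libraries came from the hippocampi of 3 adult female mice of genotype Scn8aD/+, heterozygous for the D allele of Scn8a, the gene of a voltage-gated sodium channel, and all 3 were collected after onset. There is 1 group, no control animals were analysed here, and each mouse had its own batch, so that mouse and batch cannot be told apart. Every comparison is therefore between nuclei of the same mice, and says nothing of the effect of the D allele. A 3' count holds both alleles together and does not check the genotype.

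The deposited matrices held 8863, 13904 and 4659 barcodes and 100230288, 50931257 and 140527761 UMIs in mice 1, 2 and 3, so nuclei of mouse 3 were the most deeply sequenced and those of mouse 2 the least. Median UMIs per nucleus were 16050, 5600 and 47037 in the Cnr1 nuclei and 13814, 6586 and 27231 in the other inhibitory nuclei. Between pairs of libraries, 13 to 36 barcodes were shared, and 1 Cnr1 nucleus carried such a barcode but no barcode was a Cnr1 nucleus in both libraries. Scrublet called 7, 0 and 1 of the Cnr1 nuclei as doublets, and these were kept.

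The nuclei they were compared with, all 2953 other inhibitory nuclei (784, 426 and 1743), included nuclei with the genes of granule cells, the excitatory neurons of the dentate gyrus. Clusters with 250 CPM or more of Prox1 and under 10 CPM of the interneuron transcript Dlx6os1, limits chosen after seeing the data, held 25.5%, 6.57% and 71.8% of the other inhibitory nuclei of mice 1, 2 and 3, and none of the Cnr1 nuclei. CPM, the usual depth-scaled unit, are the UMI counts of one group in one mouse divided by the summed UMIs of those nuclei and put on a common scale. The summed level of 9 granule cell markers was 615, 835 and 789 CPM in the Cnr1 nuclei against 1702, 1553 and 2344 CPM in the other inhibitory nuclei. It was 908, 1062 and 1150 CPM in the 664 inhibitory nuclei with 2 or more UMIs of Pvalb, Sst, Vip or Lamp5 (325, 77 and 262 nuclei). Main results are therefore given also against these marker-positive nuclei, a comparison added after seeing the data.

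Cnr1 nuclei made up 7.66% of the inhibitory nuclei of mouse 1 (Wilson 95% interval 6.05 to 9.64%), 6.78% in mouse 2 (4.82 to 9.47%) and 1.75% in mouse 3 (1.23 to 2.47%). These intervals cover counting error only. Of all nuclei with 500 or more genes they were 0.754%, 0.235% and 0.666%. As a share of inhibitory nuclei, Cnr1 nuclei were thus lowest in mouse 3, and as a share of all nuclei in mouse 2. Mouse 3 was also the mouse whose inhibitory gate held the most granule-gene nuclei, and their part in its share was not tested.

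The levels of the marker genes describe the nuclei. Because Cnr1, Gad1, Gad2 and Slc17a7 were used in the choice, they cannot check the label. Cnr1 stood at 1162, 1189 and 1313 CPM in the Cnr1 nuclei against 77.9, 106 and 42.8 CPM in the other inhibitory nuclei, as the choice requires. Gad1, which makes GABA, was at 299.8, 268 and 569 CPM against 331, 352 and 529 CPM, and Gad2, its second synthetic enzyme, at 443, 543 and 932 CPM against 304.0, 333 and 257 CPM. The vesicular GABA transporter Slc32a1, which the choice did not use, had 38.9, 24.1 and 27.5 CPM in Cnr1 nuclei and 24.6, 18.4 and 6.07 CPM in the other inhibitory nuclei. Slc17a7, the vesicular glutamate transporter of excitatory neurons, was at 42.4, 44.7 and 30.9 CPM against 70.0, 77.7 and 81.9 CPM.

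Nuclei near the Cnr1 limit differed between mice. Among nuclei with 3 or more Cnr1 UMIs, those just inside, at 5 to 6 Cnr1 UMIs per 10000, had 8865, 10693 and 7989 CPM of Adarb2, a gene of CGE interneurons (10, 5 and 6 nuclei). Those just outside, at 4 to 5 per 10000, had 8662, 7503 and 3056 CPM (11, 4 and 7 nuclei). In mouse 1 the nuclei on both sides of the limit were alike in Adarb2, and in mouse 3 they were far apart.

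The Cnr1 nuclei lay together in genes that the choice did not use. When the inhibitory nuclei of each mouse were clustered without the 8 genes, 1 cluster held 54 of 65 Cnr1 nuclei in mouse 1, 27 of 31 in mouse 2 and 28 of 31 in mouse 3. These clusters held 91, 67 and 75 nuclei, so each also took in nuclei that failed the Cnr1 limit or held a subtype marker. In mice 2 and 3 they also had the highest Vip level of all clusters, at 171 and 112 CPM. Cnr1 nuclei and nuclei with Vip thus shared a cluster there. In mouse 1 the cluster had 11.5 CPM of Vip, against 555 CPM in another cluster. Of the 15 nearest neighbours of a Cnr1 nucleus, 56.2%, 49.5% and 69.0% on average were Cnr1 nuclei, against 3.55%, 4.69% and 0.608% of the neighbours of other inhibitory nuclei.

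**Figure D1:**
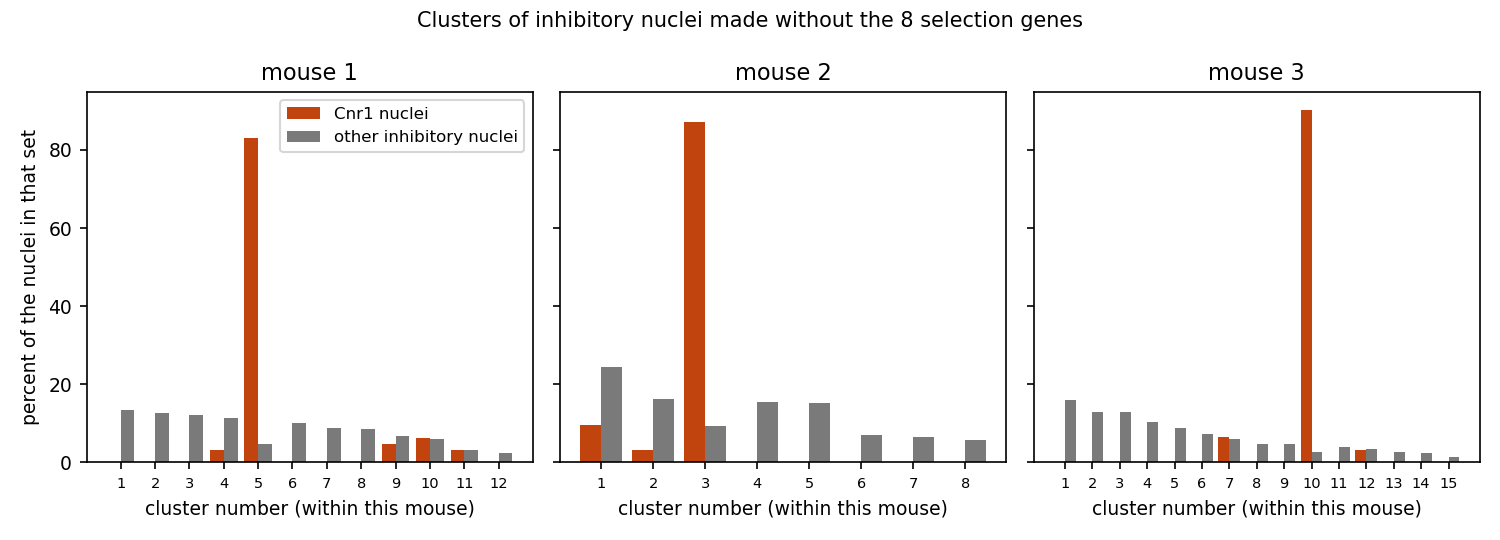
Percent of the Cnr1 nuclei and of the other inhibitory nuclei that fell in each cluster of inhibitory nuclei, with 1 panel per mouse; clusters were made without the 8 genes that chose the nuclei. In each mouse 1 cluster held most Cnr1 nuclei (54 of 65, 27 of 31 and 28 of 31).

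Against the other inhibitory nuclei, 852 of 13332 genes tested were called (6.39%), 337 higher (2.53%) and 515 lower (3.86%) in the Cnr1 nuclei. Calls were made where the adjusted p was under 0.05 and the arms differed at least 2-fold (a log2 fold change of 1 in either direction) in edgeR's quasi-likelihood test of the summed counts with Benjamini-Hochberg adjustment and the mouse as a block. All such p-values and standard errors (SE) below come from this test, with n = 3 mice in each arm unless stated. The median log2 fold change of all genes was -0.05, and the arms did not overlap between mice for 15.4% of genes. Without mouse 1, which had the most Cnr1 nuclei, 461 genes were called. With the marker-positive nuclei as the other arm, 659 of 11388 genes were called (5.79%), 257 higher (2.26%) and 402 lower (3.53%).

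**Figure D2:**
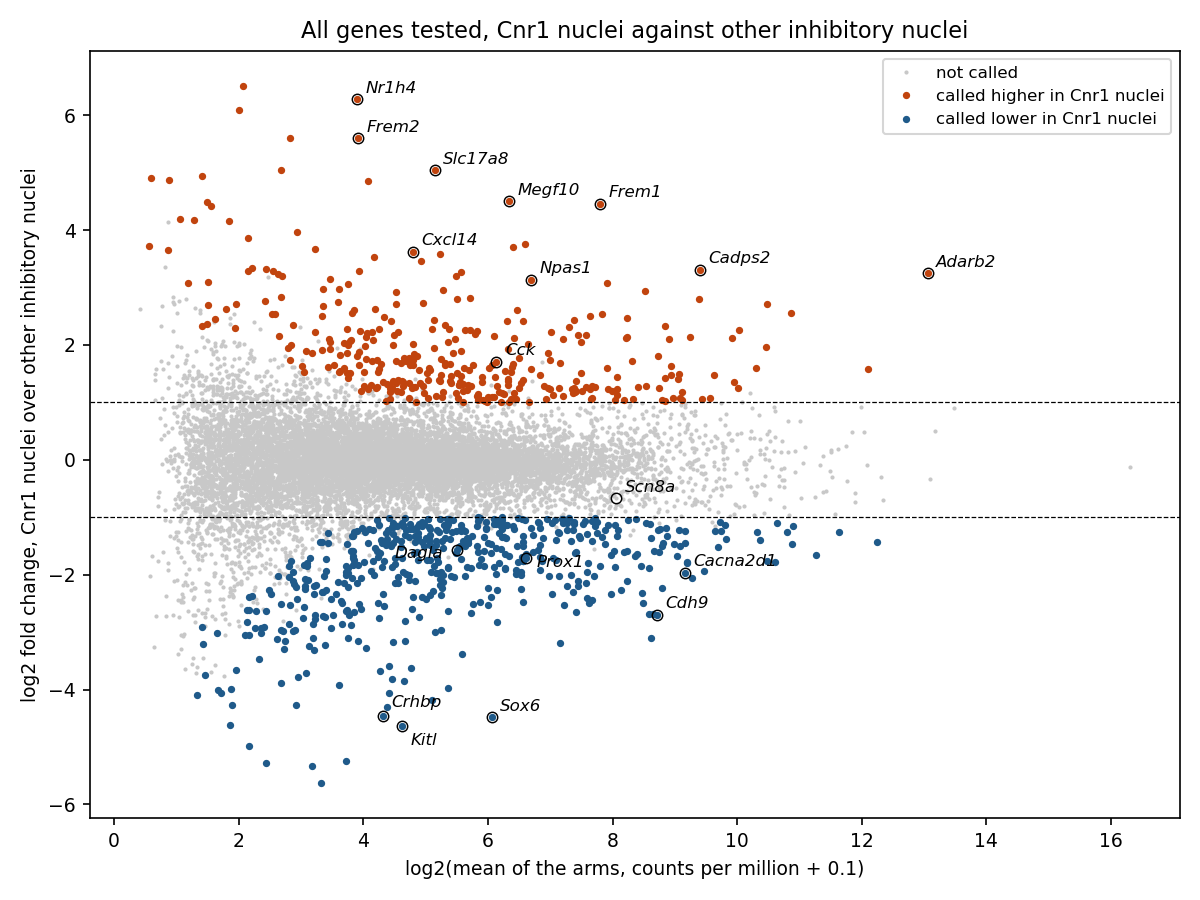
Mean level of each gene (log2 CPM) on the x axis and log2 fold change of Cnr1 nuclei over other inhibitory nuclei on the y axis, for 13312 of the 13332 genes tested; coloured points are called genes. The 20 genes at 0 in every Cnr1 nucleus, 15 of them called, are not drawn.

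Genes known from cholecystokinin basket cells were higher in the Cnr1 nuclei. Of 16 such genes besides Cnr1, 15 were tested, 12 were called higher and 2 lower, with a median log2 fold change of 2.71. The calls were 93.3% of those tested, against 6.39% of all genes (2.53% higher and 3.86% lower). With the marker-positive nuclei, where 5.79% of all genes were called, 11 were called higher and 2 lower. Without mouse 1 these were 9 and 2 of 13 tested. Cck itself, the gene of cholecystokinin (mm10 chromosome 9, bases 121489824 to 121495694, minus strand), had 173, 30.9 and 122 CPM in Cnr1 nuclei of mice 1, 2 and 3 against 39.2, 32.1 and 24.6 CPM in the other inhibitory nuclei. It was high in mice 1 and 3 and at the level of the other nuclei in mouse 2. The log2 fold change was 1.71 ± 0.33 (SE; adjusted p = 0.012), and the call was lost without mouse 1 (1.45, adjusted p = 0.13). The log2 fold change over the marker-positive nuclei was 1.61 ± 0.25 (adjusted p = 0.001).

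Slc17a8 encodes the vesicular glutamate transporter VGLUT3, found in a subset of these basket cells (mm10 chromosome 10, bases 89574020 to 89621253, minus strand). It had 38.0, 37.8 and 128 CPM in Cnr1 nuclei against 6.35, 1.5 and 0.547 CPM in the other inhibitory nuclei, so that the arms did not overlap. Its log2 fold change was 5.04 ± 0.90 (adjusted p = 0.0079), and it was 4.25 ± 0.53 against the marker-positive nuclei. All its UMIs in mouse 2 lay in 1 nucleus, and without mouse 2 the log2 fold change was 5.20 (adjusted p = 0.026). The chemokine gene Cxcl14 had 45.1, 44.7 and 62.5 CPM against 5.37, 6.42 and 2.31 CPM, a log2 fold change of 3.62 ± 0.37 (adjusted p = 0.00068). It was close to equal in all 3 mice.

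Htr3a, a subunit of the serotonin-gated 5-HT3 channel, had 37.1, 24.1 and 34.9 CPM in Cnr1 nuclei against 5.59, 5.14 and 0.90 CPM (log2 fold change 3.52 ± 0.52, adjusted p = 0.0033). The transcription factor Npas1 had 179, 227 and 143 CPM against 39.1, 24.0 and 7.57 CPM (3.14 ± 0.32, adjusted p = 0.00068). Rgs12, a regulator of G protein signalling, had 225, 186 and 119 CPM against 22.2, 22.0 and 3.62 CPM (3.77 ± 0.33, adjusted p = 0.00048). In each of these genes every mouse was higher in its Cnr1 nuclei. The keratin gene Krt73 (5.04 ± 0.60), Trp53i11 (3.59 ± 0.23), Tac2, a tachykinin gene (2.55 ± 0.61), and the collagen gene Col25a1 (2.71 ± 0.25) were called higher as well. The 2 called lower were the calcium-binding protein gene Calb1 (-1.30 ± 0.28) and Crhbp, which encodes the binding protein of corticotropin-releasing hormone. Crhbp had 0.884, 3.44 and 2.69 CPM in Cnr1 nuclei against 42.0, 24.2 and 46.0 CPM (-4.46 ± 0.41, adjusted p = 0.00049). Without mouse 3 Tac2 (1.60, adjusted p = 0.17) and Calb1 (-0.89) were not called, and Calb1 was not called without mouse 2 (adjusted p = 0.071) or against the marker-positive nuclei (-0.71). With doublets left out Tac2 was not called (1.89, adjusted p = 0.0998).

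Of 16 genes of the CGE lineage, all tested, 6 were called higher and 1 lower (43.75%, against 6.39% of all genes, median log2 fold change 0.46). Adarb2, which marks interneurons of this origin (mm10 chromosome 13, bases 8202866 to 8768747, plus strand), had 14293, 16470 and 15618 CPM in Cnr1 nuclei against 1748, 1983 and 1051 CPM in the other inhibitory nuclei. The log2 fold change was 3.25 ± 0.24 (adjusted p = 0.00017), and the mice of the 2 arms were far from overlapping. The neuronal transcription factor gene Npas3 (2.55 ± 0.26) and the zinc finger gene Sp8 (4.18 ± 1.01, adjusted p = 0.034) were called higher, but Sp8 was low, at 0.884, 6.88 and 5.37 CPM, and was not called with doublets left out (adjusted p = 0.084). Nr2f2, the gene of the CGE transcription factor COUP-TFII, had 38.9, 27.5 and 23.5 CPM against 25.2, 19.1 and 18.8 CPM and was not called (0.40 ± 0.24, adjusted p = 0.42).

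Prox1, a transcription factor of both CGE interneurons and granule cells, went the other way, with 45.1, 65.3 and 34.2 CPM in Cnr1 nuclei against 101, 79.6 and 262 CPM (-1.71 ± 0.43, adjusted p = 0.04). The other inhibitory nuclei of mouse 3, of which 71.8% lay in granule-gene clusters, had the highest value. Against the marker-positive nuclei the difference was -0.36 (adjusted p = 0.38), without mouse 1 the adjusted p was 0.0907, with doublets left out it was 0.052, and without mouse 3 the log2 fold change was -0.89, so the call was lost in each case.

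Genes of the MGE lineage gave calls in both directions: of 15 tested, 3 were higher and 4 lower (46.7%, against 6.39% of all genes, median -0.19). Without mouse 3 these were 1 and 8 (median -1.36), and without mouse 1 they were 1 and 3 (median 0.54). Lhx6, the transcription factor that specifies MGE interneurons (mm10 chromosome 2, bases 36081953 to 36105408, minus strand), had no UMI in any of the 127 Cnr1 nuclei against 43.8, 28.5 and 11.6 CPM in the other inhibitory nuclei. With the limit of 3 counts over the summed Cnr1 nuclei it was at least 17.8-fold lower (adjusted p = 0.0011). Sox6, which acts with Lhx6, had 8.84, 6.88 and 2.69 CPM against 170.5, 143 and 69.2 CPM (-4.48 ± 0.27, adjusted p = 7.0e-05). Nxph1, the gene of a neurexin ligand, had 315, 134 and 232 CPM against 1442, 1208 and 398 CPM (-2.06 ± 0.35, adjusted p = 0.0065), with an adjusted p of 0.069 without mouse 1. The fourth was the transcription factor gene Mef2c (-1.47 ± 0.19).

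The 3 MGE genes called higher were Grip1, a scaffold of glutamate receptors, Btbd11 and the transcription factor gene Maf. None of them was called against the marker-positive nuclei. There 0 of 15 MGE genes were higher and 8 lower (median -1.23), against 2.26% higher and 3.53% lower of all genes. Grip1 had 6283, 6679 and 6786 CPM in Cnr1 nuclei against 2854, 2692 and 1156 CPM (1.58 ± 0.26, adjusted p = 0.0059). Against the marker-positive nuclei its log2 fold change was 0.95, and without mouse 1 the adjusted p was 0.067. Btbd11 (1.27 ± 0.31) and Maf (1.19 ± 0.28) were at 0.72 and 0.70 without mouse 3, and the adjusted p was 0.064 for Btbd11 without mouse 1 and 0.079 for Maf without mouse 2.

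Of 12 genes shared by interneurons, 3 were called higher and 0 lower (25%, against 6.39% of all genes). They were the non-coding transcript Dlx6os1, its neighbour gene Dlx5, and Abat, which breaks down GABA. Dlx6os1 had 746, 567 and 943 CPM in Cnr1 nuclei against 231, 222 and 49.8 CPM (2.33 ± 0.46, adjusted p = 0.013). The summed level of the 12 genes was 5598, 5022 and 5878 CPM in Cnr1 nuclei against 5081, 4647 and 1435 CPM in the other inhibitory nuclei, so the gap was widest in mouse 3. Against the marker-positive nuclei, where 5.79% of all genes were called, only Dlx6os1 of the 12 was called (1.56). Dlx5 was not called without mouse 1 (adjusted p = 0.052) or mouse 2 (0.071), nor Abat without mouse 1 (0.055) or mouse 3 (log2 fold change 0.84). The part of granule-gene nuclei in these calls was otherwise not tested.

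Outside these lists, the genes with the highest fold included several of the extracellular matrix. Frem1 had 418, 354 and 500.3 CPM in Cnr1 nuclei against 39.2, 24.4 and 6.13 CPM (log2 fold change 4.46 ± 0.49, adjusted p = 0.00089). Its relative Frem2 had 21.2, 41.3 and 25.5 CPM against 0.604, 0.642 and 0.388 CPM (5.60 ± 0.43, adjusted p = 0.00023). Both were several times higher in every mouse. The collagen gene Col14a1 had 53.9, 3.44 and 37.6 CPM against 3.17, 1.5 and 0.335 CPM (4.85 ± 0.65, adjusted p = 0.0021) and was low in mouse 2.

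Megf10, the gene of an engulfment receptor best known from astrocytes, had 144, 162 and 160.5 CPM in Cnr1 nuclei against 5.36, 9.63 and 5.67 CPM in the other inhibitory nuclei. Its log2 fold change of 4.51 ± 0.22 had the smallest adjusted p of these genes (2.5e-05), and it was 5.06 against the marker-positive nuclei. Nr1h4, the gene of the bile acid receptor FXR, had 5.31, 44.7 and 37.6 CPM against 0.831, 0.214 and 0.0706 CPM (6.28 ± 1.01, adjusted p = 0.0052). It was lowest in the Cnr1 nuclei of mouse 1. The imprinted zinc finger gene Zim1 had 25.6, 75.6 and 67.8 CPM against 4.61, 3.64 and 4.48 CPM (3.45 ± 0.34, adjusted p = 0.00059).

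The genes with the lowest fold after Lhx6 included Kitl, which encodes the Kit ligand, with 0.884, 3.44 and 4.03 CPM in Cnr1 nuclei against 17.0, 10.9 and 110.4 CPM (-4.63 ± 0.44, adjusted p = 0.00049). Cpa6, a carboxypeptidase gene, gave 1 UMI in all Cnr1 nuclei against 639 in the other inhibitory nuclei, a ratio 25.0-fold lower with an exact counting interval of 4.46 to 987. Acan, the gene of the perineuronal net proteoglycan aggrecan, had 0, 0 and 12.1 CPM against 2.49, 3.85 and 187 CPM (-4.18 ± 0.36, adjusted p = 0.00041). Its level was low in both arms of mice 1 and 2, so the values of the arms overlapped across mice. The guidance gene Sema3a (-3.98 ± 0.33), the inward rectifier gene Kcnj2 (-3.93 ± 0.50), the prolactin receptor gene Prlr (-3.85 ± 0.36), Eya4 (-4.06 ± 0.41), Mctp2 (-4.31 ± 0.45) and Alkal2, which encodes a ligand of the kinase ALK (-3.82 ± 0.36), were also called lower. Each was lower in the Cnr1 nuclei of all 3 mice.

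Of 16 endocannabinoid genes tested, 0 were called higher and 2 lower (12.5%, against 6.39% of all genes, median -0.33). The list held genes that make and break down these lipids, and others such as Cnrip1 and Pparg. Dagla, which makes 2-arachidonoylglycerol, had 25.6, 37.8 and 13.4 CPM in Cnr1 nuclei against 87.6, 66.8 and 40.4 CPM (-1.57 ± 0.24, adjusted p = 0.0043). It was lower in 3 of 3 mice, and it was called against the marker-positive nuclei too (-1.41 ± 0.23, adjusted p = 0.0013). Without mouse 1 the log2 fold change was -1.32 (adjusted p = 0.072), and then 0 endocannabinoid genes were called. Ptgs2, the cyclooxygenase gene whose product oxidises endocannabinoids and which neuronal activity induces, had 12.4, 27.5 and 59.1 CPM against 42.8, 24.6 and 202 CPM (-1.60 ± 0.33, adjusted p = 0.016). It was higher in the Cnr1 nuclei of mouse 2, its call was lost without mouse 1 (adjusted p = 0.14), and against the marker-positive nuclei the log2 fold change was -0.31 (adjusted p = 0.54).

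Mgll, the lipase that breaks down 2-arachidonoylglycerol in terminals, had 118, 124 and 101 CPM in Cnr1 nuclei against 108, 82.2 and 32.6 CPM and was not called (0.72 ± 0.25, adjusted p = 0.14). Cnrip1, which binds the tail of CB1, had 86.7, 61.9 and 83.3 CPM against 132, 116 and 160.0 CPM, with an adjusted p of 0.019 at a log2 fold change of -0.90 ± 0.19, under the fold needed for a call. The same held for the phospholipase gene Plcb1 (-0.94 ± 0.19, adjusted p = 0.014). The others lay between -0.53 for Abhd6 and 0.98 for Naaa, which encode lipid hydrolases.

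Scn8a, the gene with the D allele (mm10 chromosome 15, bases 100869858 to 101045938, plus strand), had 222, 203 and 217 CPM in the Cnr1 nuclei against 309, 272 and 379 CPM in the other inhibitory nuclei. The Cnr1 nuclei were lower in 3 of 3 mice and the arms did not overlap, but the difference was not called (-0.66 ± 0.19, adjusted p = 0.065). It was -0.37 ± 0.12 (adjusted p = 0.078) against the marker-positive nuclei. Of 13 sodium channel genes tested, 1 was called (7.69%, near the 6.39% of all genes). It was Scn9a, with 85.8, 120.3 and 84.6 CPM in Cnr1 nuclei against 59.9, 52.2 and 12.4 CPM (1.44 ± 0.35, adjusted p = 0.032). The call was lost without mouse 2 (adjusted p = 0.082), without mouse 3 (log2 fold change 0.76) and against the marker-positive nuclei (0.91), where 0 of 12 were called.

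Among 43 potassium channel genes tested, 4 were called higher and 7 lower (25.6%, against 6.39% of all genes, median -0.14). Against the marker-positive nuclei 4 were higher and 4 lower. Kcnip1, a partner of A-type Kv4 channels, had 677, 688 and 950.2 CPM in Cnr1 nuclei against 233, 258 and 77.3 CPM (2.10 ± 0.37, adjusted p = 0.0071). Kcnq5, a subunit of the M-current channel, had 2425, 2200 and 2088 CPM against 643, 860.1 and 293 CPM (1.96 ± 0.26, adjusted p = 0.0019). Both were higher in every mouse. Kcnip2, of the same family as Kcnip1, had 13.3, 13.8 and 2.69 CPM against 40.7, 31.0 and 16.3 CPM (-1.87 ± 0.33, adjusted p = 0.0078), and without mouse 1 its adjusted p was 0.065. Without mouse 1, 1 potassium channel gene was lower and 4 were higher.

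Of 23 calcium and HCN channel genes, 1 was higher and 5 were lower (26.1%, against 6.39% of all genes). These were 1 and 4 of 22 with the marker-positive nuclei and 1 and 2 without mouse 1. Cacna2d1, the gabapentin-binding auxiliary subunit, had 220.2, 230.3 and 287 CPM in Cnr1 nuclei against 842, 797 and 1069 CPM (-1.96 ± 0.18, adjusted p = 0.00049). Cacna1e, the R-type channel gene, had 124, 199 and 162 CPM against 427, 492 and 709.9 CPM (-1.84 ± 0.22, adjusted p = 0.0013). The 1 called higher was Cacng4, a transmembrane regulator of AMPA receptors (1.75 ± 0.33).

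Glutamate receptor genes were called in 1 direction: 0 of 23 tested were higher and 8 lower (34.8%, against 6.39% of all genes, median -0.43). Against the marker-positive nuclei 0 were higher and 8 lower of 22. The metabotropic receptor gene Grm7 had 428, 636 and 1127 CPM in Cnr1 nuclei against 1559, 1693 and 3924 CPM (-1.78 ± 0.20, adjusted p = 0.00094). The AMPA receptor subunit gene Gria3 had 290.1, 265 and 224 CPM against 900.4, 777 and 682 CPM (-1.68 ± 0.18, adjusted p = 0.00085), and its log2 fold change against the marker-positive nuclei was -1.75. The NMDA receptor subunit gene Grin2a had 763, 794 and 699.7 CPM against 1653, 1765 and 2239 CPM (-1.40 ± 0.21, adjusted p = 0.0038). Its adjusted p was 0.064 without mouse 1, where 2 of the receptor genes were called lower.

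GABA receptor genes gave 3 lower and 0 higher calls of 17 (17.6%, against 6.39% of all genes, median -0.47). There were 2 higher and 5 lower against the marker-positive nuclei and 0 calls without mouse 1. The extrasynaptic subunit gene Gabrd gave 3 UMIs in all Cnr1 nuclei against 403 in the other inhibitory nuclei, a ratio 5.25-fold lower (exact counting interval 1.78 to 25.5). Its adjusted p was 0.019, and 0.27 without mouse 1.

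Receptors for monoamines and acetylcholine differed in both directions, with 4 higher and 2 lower of 18 tested (33.3%, against 6.39% of all genes, median 0.49). Against the marker-positive nuclei 2 were higher and 3 lower of 15. Besides Htr3a, the serotonin receptor gene Htr2c was called higher, at 269.7, 316 and 145 CPM in Cnr1 nuclei against 52.1, 66.5 and 37.1 CPM (2.11 ± 0.19, adjusted p = 0.00048). The serotonin receptor gene Htr4 was called lower, at 28.3, 79.1 and 103 CPM against 212, 215 and 580.3 CPM (-2.44 ± 0.27, adjusted p = 0.00092). Chrm2, the muscarinic M2 receptor gene, had 36.3, 24.1 and 22.8 CPM against 104, 99.1 and 54.9 CPM (-1.61 ± 0.21, adjusted p = 0.0019). Serotonin receptor genes thus stood on both sides, with no overlap between the arms for Htr2c, Htr3a and Htr4.

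Of 15 neuropeptide and hormone genes tested, 5 were called higher and 5 lower (66.7%, against 6.39% of all genes), and without mouse 1 these were 2 and 0 of 12. Igf1, the gene of insulin-like growth factor 1, was called higher at 319, 254 and 267 CPM in Cnr1 nuclei (2.44 ± 0.23, adjusted p = 0.00049). Pnoc, which encodes the nociceptin precursor, was called higher too (1.37 ± 0.30), but its log2 fold change was 0.33 against the marker-positive nuclei and -0.18 against other inhibitory nuclei limited to 10 or more Gad1 and Gad2 UMIs per 10000, neither called. It was also not called without mouse 2 (adjusted p = 0.069) or without mouse 3 (log2 fold change 0.80). Nxph2, a relative of Nxph1, had no UMI in the Cnr1 nuclei against 20.2, 16.3 and 3.18 CPM, so with the mice summed it was at least 6.81-fold lower. The opioid peptide gene Pdyn was called lower (-2.97 ± 0.66, adjusted p = 0.023, and 0.080 without mouse 1) but was at most 3.44 CPM in the Cnr1 nuclei and 1.28 CPM in the other inhibitory nuclei of mouse 2. Of 14 peptide receptor genes 14.3% were called, against 6.39% of all genes. The neuropeptide Y receptor gene Npy1r was higher (1.38 ± 0.26) and the delta opioid receptor gene Oprd1 lower (-1.22 ± 0.28). Oprd1 had an adjusted p of 0.22 without mouse 1 and 0.063 without mouse 2.

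Genes of transmitter release gave 5 higher and 6 lower calls of 43 (25.6%, against 6.39% of all genes, median -0.03). They gave 5 and 5 against the marker-positive nuclei. Cadps2, a priming factor of dense-core vesicles, had 1314, 1351 and 1027 CPM in Cnr1 nuclei against 141, 151 and 73.9 CPM (3.31 ± 0.20, adjusted p = 7.0e-05). Synaptotagmins, the calcium sensors and tethers of vesicles, split. Syt6 had 136, 131 and 202 CPM against 8.69, 16.7 and 11.1 CPM (3.70 ± 0.24, adjusted p = 0.0001), and Syt9 had 28.3, 48.1 and 26.2 CPM against 5.74, 7.28 and 3.96 CPM (2.48 ± 0.27, adjusted p = 0.00089). Syt2, the fast calcium sensor known from parvalbumin terminals, gave 3 UMIs in the Cnr1 nuclei against 767, a ratio 9.98-fold lower (exact counting interval 3.40 to 48.5), with an adjusted p of 0.0032 and of 0.055 without mouse 1.

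Adhesion and guidance genes were called in both directions, in a comparison with 337 higher (2.53%) and 515 lower (3.86%) calls over all 13332 genes tested. Of 49 synaptic adhesion genes 1 was higher and 9 lower (20.4%, median -0.02). Of 23 cadherins and protocadherins 2 were higher and 7 lower (39.1%, median -0.45), and of 30 guidance genes 2 were higher and 8 lower (33.3%, median -0.49). Against the marker-positive nuclei the higher and lower calls were 1 and 7, 1 and 6, and 3 and 6, and without mouse 1 they were 1 and 4, 3 and 6, and 1 and 5. Over Pvalb nuclei the split was another, with 7 adhesion genes higher and 8 lower of 47 and 8 guidance genes higher and 3 lower of 29. These were 31.9% and 37.9%, against 10.4% of all genes. The cadherin gene Cdh9 had 119, 92.8 and 115 CPM in Cnr1 nuclei against 489.6, 438 and 1259.5 CPM (-2.70 ± 0.31, adjusted p = 0.0012). Cdh12 had 64.6, 55.0 and 70.5 CPM against 363, 318 and 282 CPM (-2.40 ± 0.19, adjusted p = 0.00027). Il1rapl2 (-2.11 ± 0.25) and Clstn2 (-1.93 ± 0.22), both synaptic adhesion genes, and Ntng2, the gene of a netrin-like ligand (-3.59 ± 0.52), were lower in every mouse. The semaphorin gene Sema3c was called higher, with 134, 144 and 109 CPM against 41.5, 39.8 and 7.57 CPM (2.42 ± 0.36, adjusted p = 0.0033).

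Of 15 calcium-binding protein genes 2 were higher and 4 lower (40%, against 6.39% of all genes, median -0.29), with 2 and 2 against the marker-positive nuclei. Necab1 had 521, 554 and 436 CPM in Cnr1 nuclei against 145, 114 and 37.6 CPM (2.48 ± 0.28, adjusted p = 0.00099). The neurocalcin gene Ncald had 99.0, 134 and 79.9 CPM against 297, 309 and 424 CPM (-1.85 ± 0.26, adjusted p = 0.0026). In the perineuronal net and matrix list 2 of 13 genes were higher and 1 lower (23.1%, against 6.39% of all genes, median -0.85). These were 2 and 4 of 12 with the marker-positive nuclei. The higher ones were the transmembrane collagen gene Col25a1 and the collagen gene Col19a1, the second at 1291, 952 and 1221 CPM in Cnr1 nuclei against 273, 189.8 and 71.5 CPM (2.80 ± 0.33, adjusted p = 0.0011).

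**Figure D3:**
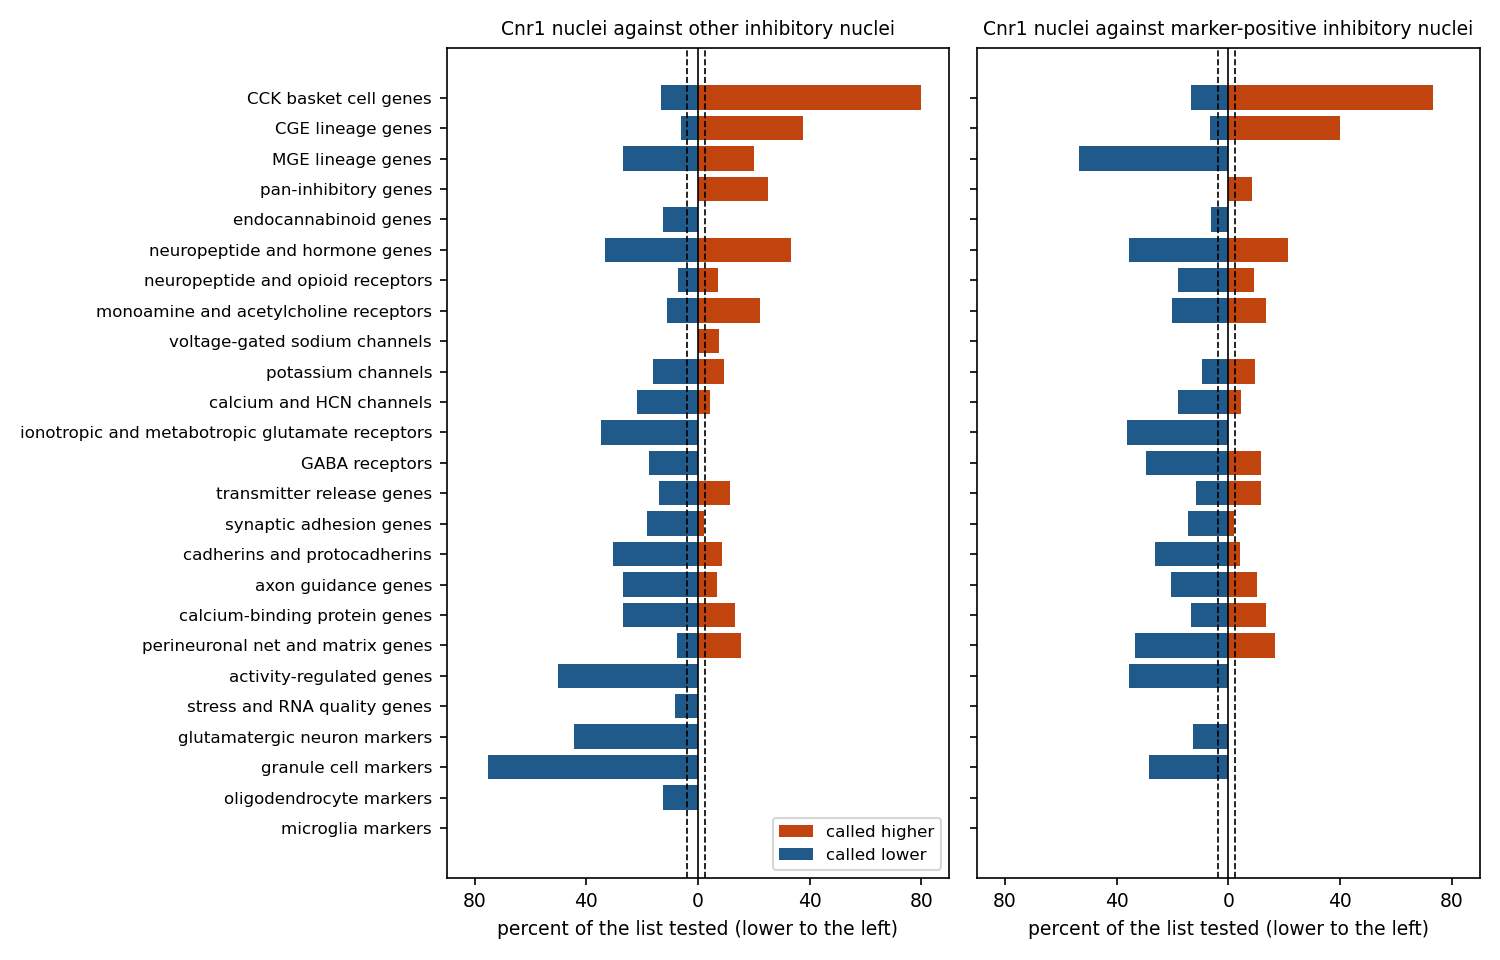
Percent of the tested genes of each list with 8 or more tested genes that were called higher or lower in Cnr1 nuclei, against other inhibitory nuclei on the left and against marker-positive inhibitory nuclei on the right; dashed lines give the percent over all genes tested. Of the basket cell genes 12 of 15 are higher on the left and 11 of 15 on the right, and calls among activity-regulated genes are all lower.

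Genes that neuronal activity induces were called only lower. Of 30 tested, 0 were higher and 15 lower (50%, against 6.39% of all genes, median -1.24). Against the marker-positive nuclei, where 5.79% of all genes were called, these were 0 and 10 of 28 (median -0.83). Without mouse 1 they were 0 and 3 of 29. The summed level of the activity-regulated genes was 1016, 759.7 and 1541 CPM in Cnr1 nuclei against 2617, 1076 and 4416 CPM in the other inhibitory nuclei. It was 1790.3, 935 and 2655 CPM in the marker-positive nuclei. In the other inhibitory nuclei it was lowest in mouse 2. Of the single classes, Vip nuclei (1259, 759 and 1882 CPM) and the Pvalb nuclei of mice 1 and 3 (1285 and 1952 CPM) lay nearer. Lamp5 nuclei had 1773, 891 and 2691 CPM, about the level of the marker-positive nuclei. The calls were 0 higher and 1 lower of 21 (4.76%) over Vip and 0 and 3 of 28 (10.7%) over Pvalb nuclei, near the 4.54% and 10.4% of all genes. Over Lamp5 nuclei they were 0 and 7 of 28 (25%), above the 5.44% of all genes. Bdnf, the gene of a growth factor that granule cells make in quantity, had 33.6, 89.4 and 149.7 CPM in Cnr1 nuclei against 203, 134 and 1076 CPM (-2.26 ± 0.39, adjusted p = 0.007), with an adjusted p of 0.074 without mouse 1. The immediate-early transcription factor gene Nr4a2 had 45.1, 13.8 and 9.40 CPM against 205, 8.35 and 102 CPM (-2.53 ± 0.44, adjusted p = 0.0072), was higher in the Cnr1 nuclei of mouse 2, and had an adjusted p of 0.062 without mouse 1. Bdnf (-0.86) and Nr4a2 (-0.82) were not called against the marker-positive nuclei.

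Markers of excitatory neurons moved with these calls. Of 8 granule cell markers tested 6 were lower (median -1.51) and 0 higher, and of 9 glutamatergic markers 4 were lower (median -1.11) and 0 higher. The lower calls were 75% and 44.4%, against 3.86% of all genes. Against the marker-positive nuclei they were 2 of 7 and 1 of 8, where 3.53% of all genes were called lower. The summed level of the glutamatergic markers was 389, 457 and 341 CPM in Cnr1 nuclei against 747, 786 and 632 CPM in the other inhibitory nuclei. The granule cell marker Glis3 had 18.6, 48.1 and 33.6 CPM against 188, 171 and 400.4 CPM (-3.18 ± 0.32, adjusted p = 0.00068), and the difference was -1.21 (adjusted p = 0.0026) against the marker-positive nuclei. Their part in the lower calls of activity-regulated and receptor genes was not tested further. Among glial and other markers, the oligodendrocyte gene St18 (-2.01 ± 0.35, and -0.52 against the marker-positive nuclei, where it was not called) and the astrocyte gene Slc1a3 (-2.92 ± 0.39) were lower, Rgs5 of mural cells (3.20 ± 0.51) and Ndnf, listed for Cajal-Retzius cells and made by some interneurons (2.79 ± 0.41), were higher, and no microglia or oligodendrocyte precursor marker was called.

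The next comparison asked what goes with Cnr1 among inhibitory nuclei that all lack the 4 subtype markers. The other arm held 459, 349 and 1481 nuclei with under 2 UMIs of each marker that failed a Cnr1 limit. Here 833 of 12327 genes were called (6.76%), 343 higher (2.78%) and 490 lower (3.98%), but only 68 without mouse 1. Adarb2 was again higher in the Cnr1 nuclei, which had the CPM given above, against 1709, 1335 and 989 CPM (3.48 ± 0.27, adjusted p = 0.0025). So were Npas1, against 30.5, 19.8 and 3.13 CPM (3.77 ± 0.50, adjusted p = 0.0069), and Cadps2, against 184, 151 and 79.4 CPM (3.15 ± 0.23, adjusted p = 0.0023). Igf1 had 319, 254 and 267 CPM in Cnr1 nuclei against 42.1, 52.7 and 9.40 CPM (3.29 ± 0.43, adjusted p = 0.0068). With the mice summed Lhx6 was at least 8.27-fold lower, with 32.5, 25.7 and 3.69 CPM in the other arm. Within mice 1, 2 and 3 it was at least 12.3-fold, 2.49-fold and 1.83-fold lower. Sox6 was lower too (-3.93 ± 0.28).

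Of the basket cell genes 11 were higher and 2 lower of 15 in that comparison (median 3.40), and of the activity-regulated genes 0 were higher and 12 lower of 29 (median -1.34). These were 86.7% and 41.4%, against 6.76% of all genes. Dagla was called lower against 108, 73.2 and 37.9 CPM (-1.68 ± 0.27, adjusted p = 0.012), and Cnrip1 passed the fold limit here (-1.05 ± 0.20, adjusted p = 0.022). Scn8a was not called (-0.75 ± 0.21, adjusted p = 0.076). Without mouse 1 the adjusted p was 0.055 for Adarb2, 0.055 for Igf1 and 0.13 for both Dagla and Cnrip1, and 0.20 for Cck, which had 1.81 ± 0.37 (adjusted p = 0.026) with all mice. Cnrip1 was also not called without mouse 2 (adjusted p = 0.079) or without mouse 3 (-0.87). This arm held most of the granule-gene nuclei, and limiting it to nuclei with 10 or more Gad1 and Gad2 UMIs per 10000, a choice made after seeing the data, left 478 called genes of 9919 (4.82%). Of the activity-regulated genes it left 0 higher and 4 lower of 28, and without mouse 1 none was called in either direction.

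Finally, 3 comparisons set the same Cnr1 nuclei against single classes, each with 2 or more UMIs of 1 marker and under 2 of the others: 53 and 26 Pvalb nuclei of mice 1 and 3 (mouse 2 was left out because it had 7), 78, 29 and 70 Lamp5 nuclei, and 39, 15 and 22 Vip nuclei. Because the Cnr1 counts are shared, the comparisons are not independent and their values stand side by side only. Called genes were 1075 of 10363 over Pvalb nuclei (10.4%; 5.4% higher and 4.97% lower), 582 of 10702 over Lamp5 nuclei (5.44%; 2.42% and 3.02%) and 338 of 7447 over Vip nuclei (4.54%; 2.38% and 2.16%). The comparisons had different numbers of nuclei and genes tested, so these counts do not rank the classes.

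Over Pvalb nuclei, which are of MGE origin, 11 basket cell genes were higher and 1 lower of 14. Of CGE genes 10 were higher and 0 lower of 15, and of MGE genes 1 was higher and 8 lower of 15. These were 85.7%, 66.7% and 60%, against 10.4% of all genes. Adarb2 had 131 and 47.2 CPM in the Pvalb nuclei of mice 1 and 3 (7.53 ± 0.38, adjusted p = 4.9e-09, n = 2 mice). Cck (3.12 ± 0.26), Prox1 (1.13 ± 0.29) and Nr2f2 (1.88 ± 0.37) were higher, and Sox6 was lower (-6.14 ± 0.30). Prox1 and Nr2f2 were not called with DESeq2 (adjusted p = 0.54 and 0.14) or without the mouse block (0.20 and 0.14). The Pvalb nuclei gave no UMI of Ndnf, Htr3a, Snx31 or Frem2, which were at least 67.5-fold, 35.2-fold, 28.5-fold and 23.2-fold higher in the Cnr1 nuclei with the limit of 3 counts. Npas1 gave 415 UMIs in the Cnr1 nuclei and 1 in the Pvalb nuclei, a ratio of 467 with an exact counting interval of 83.3 to 18482. In turn the Cnr1 nuclei of these 2 mice gave no UMI of Lhx6, Nxph2, Moxd1, Mybpc1 or Adamtsl5, which were at least 61.3-fold, 45.3-fold, 42.1-fold, 35.0-fold and 29.6-fold lower with the mice summed. Within mice 1 and 3 Lhx6 was at least 26.2-fold and 35.1-fold lower. With DESeq2 none of these genes with no UMI in an arm was called (adjusted p of 0.27 to 0.51).

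Over Lamp5 nuclei 10 basket cell genes were higher and 0 lower of 13 (76.9%, against 5.44% of all genes). The subtypes and origin of the Lamp5 nuclei were not tested. Lhx6, the MGE factor, stood at 66.2, 35.4 and 41.3 CPM in them, and at 69.6 and 70.8 CPM in the Pvalb nuclei of mice 1 and 3. Adarb2 had 3186, 3213 and 2368 CPM in the Lamp5 nuclei (2.37 ± 0.14, adjusted p = 2.0e-06), so the Cnr1 nuclei were the higher in each mouse. Npas1 (4.48 ± 0.28), Htr3a (3.44 ± 0.34), Slc17a8 (4.62 ± 0.39), Megf10 (6.13 ± 0.36) and the kinase gene Stk32a (5.95 ± 0.29) were higher. Zim1 gave 152 UMIs in the Cnr1 nuclei and 2 in the Lamp5 nuclei, a ratio of 132 (exact counting interval 36.0 to 1101), and Nr1h4 gave 75 and 2, a ratio of 65.2 (17.4 to 548). Frem2 gave 74 and 1, a ratio of 129 (22.4 to 5151).

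Mctp2 was lower than in the Lamp5 nuclei, which had 173, 106 and 124 CPM (-6.32 ± 0.33, adjusted p = 8.3e-07). With the mice summed Lhx6 was at least 46.4-fold lower, with 66.2, 35.4 and 41.3 CPM in the Lamp5 nuclei. Within mice 1, 2 and 3 it was at least 25.0-fold, 3.44-fold and 20.5-fold lower. The growth factor gene Fgf10 gave 2 UMIs in the Cnr1 nuclei and 194 in the Lamp5 nuclei, a ratio 55.8-fold lower (15.2 to 464), Cpa6 gave 1 and 164, 94.3-fold lower (16.7 to 3747), and Dkk2, the gene of a Wnt regulator, gave 3 and 211, 40.4-fold lower (13.7 to 198). Of the guidance genes 1 was higher and 9 lower of 29, whereas 8 were higher and 3 lower of 29 over Pvalb nuclei and 2 higher and 1 lower of 26 over Vip nuclei. These were 34.5%, 37.9% and 11.5%, against 5.44%, 10.4% and 4.54% of all genes. Of the activity-regulated genes 0 were higher and 7 lower of 28 (25%, against 5.44% of all genes). Cck was not called (0.85 ± 0.25, adjusted p = 0.063) but passed without mouse 2 (1.05) and without mouse 3 (1.04), and Prox1 (-0.78, adjusted p = 0.14) passed as lower without mouse 2 (-1.11).

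Vip interneurons are of CGE origin too, and over them Adarb2, which had 12477, 13667 and 11710 CPM in the Vip nuclei, was not called (0.29 ± 0.14, adjusted p = 0.37). Neither were Htr3a (-0.16 ± 0.33), Npas1 (0.36 ± 0.20), Nr2f2 (-0.61 ± 0.29) or Cck, with 132, 86.3 and 15.9 CPM in the Vip nuclei (0.75 ± 0.44, adjusted p = 0.48). Cck passed without mouse 2 (1.24, adjusted p = 0.018) and was -0.021 without mouse 3. Slc17a8 was higher than in the Vip nuclei, which had 12.7, 4.54 and 0 CPM (3.53 ± 0.63, adjusted p = 0.0024). That call was lost with DESeq2 (adjusted p = 0.35), and across alternatives the log2 fold change ran from 1.88 to 5.96. Of 10 basket cell genes 3 were higher and 1 lower (40%), and of 14 CGE genes 0 were higher and 2 lower (14.3%), against 4.54% of all genes.

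Prox1 was 1 of the 2 CGE genes called lower, with 45.1, 65.3 and 34.2 CPM in Cnr1 nuclei against 225, 204 and 302 CPM in Vip nuclei (-2.49 ± 0.25, adjusted p = 1.9e-05). Ndnf, whose product is secreted, was higher, with 91.1, 82.5 and 51.7 CPM against 4.25, 9.08 and 1.99 CPM (4.05 ± 0.44, adjusted p = 3.3e-05). Nr1h4 gave 75 UMIs in the Cnr1 nuclei and none in the Vip nuclei, so with the mice summed it was at least 10.3-fold higher. Mouse 3 gave 56 of these UMIs. Within mice 1, 2 and 3 the same limit gave at least 0.833-fold, 3.28-fold and 6.30-fold. In mouse 1, with 6 UMIs in the Cnr1 nuclei, the limit could not decide whether the arms differed. Nr1h4 was not called with DESeq2 (adjusted p = 0.27). Col14a1 gave 118 and 1, a ratio of 48.4 (exact counting interval 8.52 to 1927), Snx31 83 and 1, a ratio of 34.0 (5.94 to 1360.3), and Tmem132c 71 and 1, a ratio of 29.1 (5.06 to 1166). The vesicle release list had 5 genes higher and 0 lower of 37 (13.5%), and the matrix list 4 higher and 0 lower of 7 (57.1%), against 4.54% of all genes.

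Lower than in the Vip nuclei were the cadherin gene Cdh7, with 3.54, 6.88 and 2.69 CPM in Cnr1 nuclei against 74.3, 31.8 and 89.5 CPM (-4.35 ± 0.43, adjusted p = 1.8e-05), the sialyltransferase gene St3gal1 (-4.46 ± 0.48) and the ceruloplasmin gene Cp (-4.10 ± 0.62). Slc5a7, the choline transporter of cholinergic neurons, gave 1 UMI in the Cnr1 nuclei and 29 in the Vip nuclei, a ratio 70.7-fold lower (11.7 to 2888). Tshr, the thyrotropin receptor gene, gave 2 and 29, 35.4-fold lower (8.95 to 306). Of 21 cadherins and protocadherins 0 were higher and 8 lower (38.1%), and of 46 synaptic adhesion genes 3 were higher and 10 lower (28.3%), against 4.54% of all genes.

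Scn8a stood at 367 and 382 CPM in the Pvalb nuclei of mice 1 and 3, where the Cnr1 nuclei had 222 and 217 CPM (-0.76 ± 0.17, adjusted p = 0.0063, under the fold needed for a call). The log2 fold change was -0.30 ± 0.14 over Lamp5 nuclei and -0.12 ± 0.18 over Vip nuclei, neither with an adjusted p under 0.05. Dagla was lower than in Pvalb nuclei (-1.70 ± 0.28) and Lamp5 nuclei (-1.32 ± 0.29), and was not called over Vip nuclei (-0.53 ± 0.37). The Dagla call over Lamp5 nuclei was lost without mouse 3 (-0.82), with DESeq2 (adjusted p = 0.087), with doublets left out (0.062) and without the mouse block (0.11), and that over Pvalb nuclei without the block (0.059). Mgll was called in none of these comparisons (0.75 over Pvalb, -0.26 over Lamp5 and 0.75 over Vip nuclei), but reached 1.06 (adjusted p = 0.049) over Vip nuclei without mouse 1.

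**Figure D4:**
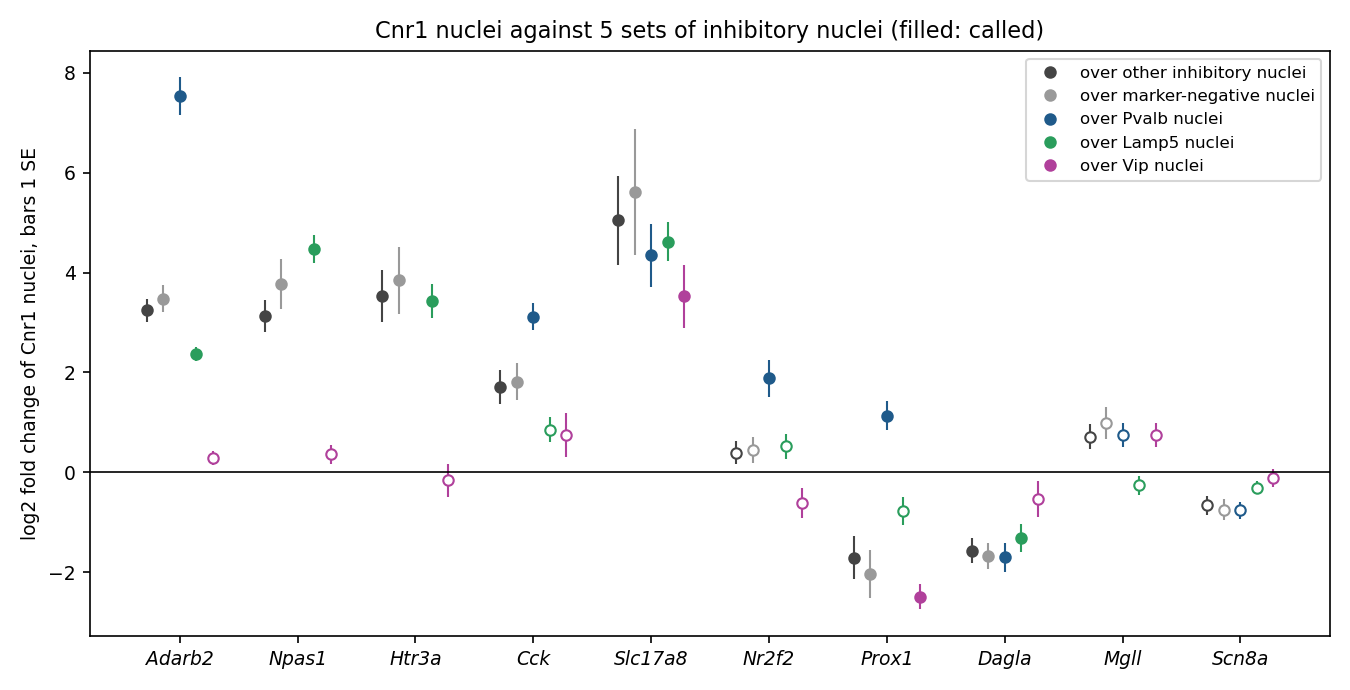
Log2 fold change of 10 genes in Cnr1 nuclei over each of 5 sets of inhibitory nuclei, with bars of 1 SE and filled points for called genes; Htr3a and Npas1 over Pvalb nuclei are left out because those nuclei gave 0 and 1 UMI. All comparisons share the Cnr1 nuclei: Adarb2 is at 7.53 over Pvalb nuclei, 2.37 over Lamp5 nuclei and 0.29 over Vip nuclei.

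Within the Cnr1 nuclei, Adarb2 was found in 127 of 127 nuclei, with a median of 115, 124 and 138 UMIs per 10000 in mice 1, 2 and 3 and a lowest count of 14, 2 and 1 UMIs. A UMI of Adarb2 was also found in 35.9%, 53.6% and 52.4% of oligodendrocyte nuclei, so a UMI alone does not set the Cnr1 nuclei apart; thinned to 1000 UMIs the shares were 100%, 90.3% and 93.5% of Cnr1 nuclei against 15.1%, 29.1% and 10.9% of oligodendrocyte nuclei. Cnr1 itself had a median of 9.5, 8.88 and 8.94 UMIs per 10000 and a maximum of 37.1, 31.4 and 44.4. Cck was less regular: 45 of 65 nuclei in mouse 1 (69.2%, Wilson 95% interval 57.2 to 79.1%), 6 of 31 in mouse 2 (19.4%, 9.19 to 36.3%) and 25 of 31 in mouse 3 (80.6%, 63.7 to 90.8%) held a UMI. These shares were in the order of the median UMIs of the nuclei (16050, 5600 and 47037). Oligodendrocyte nuclei, which should lack the gene, held a Cck UMI in 27.6%, 17.3% and 30.1% at median UMIs of 3462, 2725 and 7712, and the 17.3% of mouse 2 lay within the interval of its Cnr1 nuclei, so that the share in mouse 2 was not detectably above that of nuclei that should lack the gene. When each nucleus was thinned to 1000 UMIs, the shares of Cnr1 nuclei with a Cck UMI were 13.8%, 3.23% and 9.68%, against 8.13%, 5.73% and 4.06% of oligodendrocyte nuclei.

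Slc17a8 was found in 20%, 3.23% and 41.9% of the Cnr1 nuclei of mice 1, 2 and 3, so that its 37.8 CPM in mouse 2 came from 1 nucleus of 31. Cxcl14 was found in 20%, 32.3% and 48.4%, and here mouse 1 was the lowest. In oligodendrocyte nuclei the shares were 0.222%, 0.258% and 0.320% for Slc17a8 and 2.04%, 1.97% and 4.59% for Cxcl14. Thinned to 1000 UMIs, 4.62%, 0% and 0% of Cnr1 nuclei had a UMI of Slc17a8 and 4.62%, 9.68% and 6.45% one of Cxcl14. Both genes had a UMI in 0 of 65, 1 of 31 and 5 of 31 nuclei. Slc17a8 without Cxcl14 was found in 13, 0 and 8 nuclei and Cxcl14 without Slc17a8 in 13, 9 and 10. The 0 of 65 nuclei in mouse 1 allows a share of nuclei with a UMI of both of up to 4.62%, which sets no limit on the share that expresses both. Htr3a was found in 46.2%, 12.9% and 54.8% of Cnr1 nuclei, and Npas1 in 66.2%, 54.8% and 83.9%. In oligodendrocyte nuclei the shares were 0.533%, 0.429% and 0.427% for Htr3a and 1.86%, 2.62% and 2.67% for Npas1. Sncg, the gamma-synuclein gene, was found in 4 of 65, 3 of 31 and 2 of 31 nuclei, and in 0 of 2253, 2 of 2330 and 1 of 937 oligodendrocyte nuclei.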

How the data were processed

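Nuclear RNA of sorted hippocampal nuclei was sequenced as 10x 3' libraries, 1 per mouse. Values are raw UMI counts per gene and nucleus that the authors deposited, by Cell Ranger, whose version per the file headers was 7.1.0 in mouse 3 and 7.0.0 in the other two mice. The build was mm10, per the submitters' processing notes. The counting of introns is not given in the sources consulted. Gene positions came from GENCODE M21 on the same build (32158 of 32285 gene IDs matched).

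Nuclei with 500 or more genes were kept and classed by the UMI limits given with the results. Counts were summed per mouse and arm and tested with edgeR 4.0.16 (TMM scaling, the low-count filter filterByExpr, quasi-likelihood fit, mouse as a block, Benjamini-Hochberg adjustment over all genes tested, R 4.3.3). The 8 genes that chose the nuclei were left out of the tests. The arms are paired because they come from the same animal, and their deviations from the arm means correlated at 0.330, 0.103 and 0.351 within mice 1, 2 and 3. With the mouse as a block, P-values measure the spread over mice of the difference between the arms, with n = 2 mice for the Pvalb nuclei. The test estimates the spread of each gene in part from all genes, so a small p does not rest on that gene's values alone. On simulated counts for the comparison with other inhibitory nuclei (13375 genes), the test found 80% of genes changed by a log2 fold of 2 and 70% of those changed by 1.5. The simulation gave every gene the same fixed dispersion, not one estimated from these data. Genes that vary more between mice may therefore be found less often.

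Doublets were called with Scrublet in scanpy 1.11.5 (755, 1207 and 274 nuclei). Its automatic limit called 0 in mouse 2, so the expected rate of 0.8% per 1000 nuclei was used there. Clusters used 2000 variable genes, 20 components and 15 neighbours, and were cut by the Leiden method at resolution 1 with leidenalg 0.10.2. Shares have Wilson 95% intervals. Ratios of 1 to 3 counts have exact intervals, and a gene at 0 is set to 3 counts over its summed arm.

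The nuclei and the 29 gene lists were chosen with earlier results of these data known. Named genes are the 12 highest and 12 lowest called genes with 20 CPM or more in the higher arm and the same sign in each mouse (5 and 5 for the single classes), up to 4 called genes per list, and Scn8a, Cck, Adarb2, Prox1, Nr2f2, Lhx6, Sox6, Htr3a, Slc17a8, Npas1 and the endocannabinoid genes whatever their test. Alternatives were another scaling, DESeq2 1.42.0, no low-count filter, no mouse block, each mouse left out, nuclei thinned to 1000 UMIs, doublets removed, and other limits on nuclei.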

Additional observations from a re-analysis of the deposited data

How the results depend on the processing

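Against the other inhibitory nuclei (852 called genes), 188 were called without the mouse block (no replicate block; 101 higher and 87 lower), 227 with nuclei thinned to 1000 UMIs, 554 with a looser Cnr1 limit, 552 with every nucleus holding Slc17a7 left out, and 461 to 755 with 1 mouse left out. Against the marker-negative nuclei (833), 1498 were called with no filter on low counts, 221 without the block, 252 after thinning, 478 with the stricter Gad limit (10 per 10000 UMIs, added after seeing the data), and 68 to 818 with 1 mouse left out. Over Pvalb nuclei (1075), 533 were called by DESeq2, 274 without the block and 187 after thinning, and leaving out a mouse was not run because 1 would remain. Over Vip nuclei (338), 213 were called by DESeq2, 198 without the block, 91 after thinning and 270 to 438 with 1 mouse left out. Over Lamp5 nuclei (582), 264 were called without the block, 144 after thinning and 526 to 722 with 1 mouse left out. Of 83 named calls against the other inhibitory nuclei, 81 held under DESeq2, 83 under another scaling, 63 of 80 without mouse 1, 76 of 82 without mouse 2, 71 of 79 without mouse 3, 46 of 80 without the block and 37 of 54 after thinning. Of 17 named calls over Pvalb nuclei, 5 held under DESeq2. Pnoc, called higher against the other inhibitory nuclei, changed sign with that limit (-0.18). Values that changed sign and were not called with all mice were Nr2f2 against the other inhibitory nuclei with a stricter Cnr1 limit (-0.17, without mouse 2, which had too few such nuclei), Htr3a over Vip nuclei (-0.52 to 0.061 with 1 mouse left out, above 0 without mouse 2), Cck over Vip nuclei (-0.021 to 1.24, below 0 without mouse 3), Mgll over Lamp5 nuclei (-0.51 to 0.077, above 0 without mouse 1) and Scn8a over Lamp5 nuclei after thinning (0.24). Shares of Cnr1 nuclei with a UMI all moved on thinning, to 13.8%, 3.23% and 9.68% for Cck, 4.62%, 0% and 0% for Slc17a8 and 4.62%, 9.68% and 6.45% for Cxcl14 in mice 1, 2 and 3. Thinning uses fewer counts, and the looser limits other nuclei; for the other moves the cause was not tested. Depth limits mouse 2 most, with 290900 UMIs in its 31 Cnr1 nuclei against 1130790 and 1489230 in mice 1 and 3.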
